A study of Homo sapiens with 12 samples.

Results

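The genes described here are the metallothioneins MT2A, MT1E, MT1F and MT1X, the zinc exporter SLC30A1 and the zinc-sensing transcription factor MTF1. They are the 6 rows, of 11178 in the table of normalized values, whose gene symbol is one of these names, and all 6 passed the filter on low values that kept 11128 genes. RNA sequencing was done on U251-APP cells, a human glioblastoma line that, per the labels, stably expresses APP with the K670N and M671L changes. All groups, the controls included, carry this APP transgene. The wild-type cells (WT, 4 libraries) were compared with cells from which 1 of a pair of binding sites of the insulator protein CTCF had been removed, the site named A (CTCF-A KO, 4 libraries) or the site named B (CTCF-B KO, 4 libraries). Per the labels, Cas9 was given with a pair of guide RNAs on either side of the site, and lines were grown from single cells. The labels name the CRISPR/Cas9 treatment for the wild-type samples too, do not say that these were cloned from single cells, and give no position of either site. Nor do they tell whether replicates came from different clones or cultures, so every p-value here is set by the spread among these samples alone, and that spread may be technical. The removal of a site and any other difference between the lines of the groups cannot be told apart here.

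Metallothioneins are small, cysteine-rich proteins that bind zinc and copper and buffer free metal in the cytosol. MTF1 senses zinc through its zinc fingers, binds metal response elements in promoters and turns on the metallothionein genes and SLC30A1, whose product moves zinc out of the cell. In the brain, MT1 and MT2 proteins are made mainly by astrocytes, and metallothionein genes are also induced by glucocorticoids and by oxidative stress. The genes of the MT1 and MT2 family lie side by side on chromosome 16, while SLC30A1 and MTF1 lie on chromosome 1.

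On GRCh38, GENCODE 29 places 16 metallothionein genes and pseudogenes, 11 of them protein-coding, between positions 56565049 and 56684196 of chromosome 16. The members stand there in the order MT2A (chr16:56608199-56609497), MT1E (chr16:56625475-56627112), MT1F (chr16:56657694-56660698) and MT1X (chr16:56682424-56684196), all on the plus strand. SLC30A1 lies at chr1:211571568-211578742 and MTF1 at chr1:37809567-37859620, both on the minus strand. Of the 19 metallothionein genes and pseudogenes looked for by symbol, these 4 had a row that passed the filter, and the other 15 were not analysed here. The coding sequences of the 4 members, each of 186 bases over 3 exons, are shown because reads of such near-identical genes can be given to the wrong copy. Capitals mark the bases that differ from MT2A.

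MT2A: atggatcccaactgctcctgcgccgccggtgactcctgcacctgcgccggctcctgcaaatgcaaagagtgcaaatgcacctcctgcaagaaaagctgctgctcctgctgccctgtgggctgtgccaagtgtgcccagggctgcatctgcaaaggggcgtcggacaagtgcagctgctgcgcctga
MT1E: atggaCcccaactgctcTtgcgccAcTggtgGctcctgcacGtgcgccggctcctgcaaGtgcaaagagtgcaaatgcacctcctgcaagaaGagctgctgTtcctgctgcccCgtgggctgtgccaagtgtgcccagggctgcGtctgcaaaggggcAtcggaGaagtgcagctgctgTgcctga
MT1F: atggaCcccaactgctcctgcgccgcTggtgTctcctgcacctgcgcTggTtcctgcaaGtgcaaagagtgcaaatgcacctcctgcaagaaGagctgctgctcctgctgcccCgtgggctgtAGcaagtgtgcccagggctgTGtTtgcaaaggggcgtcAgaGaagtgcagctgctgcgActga
MT1X: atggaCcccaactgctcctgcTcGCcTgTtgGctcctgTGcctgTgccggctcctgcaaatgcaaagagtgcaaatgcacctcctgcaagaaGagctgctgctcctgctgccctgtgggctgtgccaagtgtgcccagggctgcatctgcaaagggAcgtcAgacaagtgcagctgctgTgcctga

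MT1E and MT1X each differed from MT2A at 14 of the 186 coding bases, and MT1F at 16. The pairs of coding sequences were between 88.7% (MT1F and MT1X) and 92.5% (MT2A with MT1E or with MT1X) identical. The longest run shared by 2 whole transcripts was 63 bases, between MT2A and MT1X, and the shortest such maximum was 32 bases, between MT2A and MT1E and between MT2A and MT1F. Reads were pairs of 150 bases, longer than any shared run, but how the counting treated reads that fit several genes is not given in the sources used here. Values of single metallothioneins are therefore uncertain to that degree, and for this reason their sum is given as well.

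Of the 6 members, 4 were matched in the table of RefSeq promoters (GRCh38.p14) used here. The promoters of MT1E and MT1F were not analysed here. Those of MT2A, MT1X and SLC30A1, on which MTF1 is known to act, are shown as the 250 bases before the RefSeq start, 5′ to 3′ along the gene. Capitals mark matches to the core of the metal response element, searched as TGCACNC or TGCGCNC on both strands. The windows are chr16:56608334-56608583 for MT2A, chr16:56682220-56682469 for MT1X and, on the minus strand, chr1:211579162-211579411 for SLC30A1. GENCODE starts MT2A and MT1X further upstream than RefSeq does, so the windows of these genes overlap its gene models. It starts SLC30A1 further downstream, at chr1:211578742, and the bases between that start and the window were not searched.

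MT2A: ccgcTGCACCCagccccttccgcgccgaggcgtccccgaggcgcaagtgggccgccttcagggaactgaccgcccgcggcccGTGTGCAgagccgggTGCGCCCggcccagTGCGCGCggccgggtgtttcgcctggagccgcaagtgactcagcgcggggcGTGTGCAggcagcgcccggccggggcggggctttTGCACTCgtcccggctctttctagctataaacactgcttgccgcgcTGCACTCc
MT1X: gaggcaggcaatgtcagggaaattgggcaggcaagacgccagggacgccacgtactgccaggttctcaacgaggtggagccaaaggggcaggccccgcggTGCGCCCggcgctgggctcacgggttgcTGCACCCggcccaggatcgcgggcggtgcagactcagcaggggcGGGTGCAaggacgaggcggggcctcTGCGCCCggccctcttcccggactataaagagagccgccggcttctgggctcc
SLC30A1: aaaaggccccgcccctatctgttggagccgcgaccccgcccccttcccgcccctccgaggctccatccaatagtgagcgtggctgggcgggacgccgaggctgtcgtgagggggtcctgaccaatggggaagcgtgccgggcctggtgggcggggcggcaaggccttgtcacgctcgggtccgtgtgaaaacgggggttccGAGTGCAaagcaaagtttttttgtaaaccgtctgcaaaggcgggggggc

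MT2A had 7 matches in this window, with first bases at -246, -168, -153, -139, -88, -54 and -8 from the start. MT1X had 4, at -150, -122, -78 and -53, and SLC30A1 had 1, at -49. The window of MTF1 itself had 0. Of 35116 RefSeq promoter windows of this length, 24.8% held at least 1 match, 0.37% at least 4 and 0.0313% at least 7. A TATA box (TATAAA, both strands), the element that positions transcription starts in strongly inducible genes, was found in the windows of MT2A and MT1X and in 10.7% of all windows. A match to the antioxidant element TGACNNNGC was found in those of MT2A, MT1X and SLC30A1 and in 10.9% of all windows. These matches describe the sequence and do not show binding.

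The authors deposited normalized expression on a log2 scale, and all values below are in log2 units unless called linear. Which transformation made them is not recorded and the depth of the libraries is unknown, so no counting error can be given. As a rough guide to abundance, MT2A ranked between 530 and 911 from the top of all kept genes in the 12 libraries, SLC30A1 between 4471 and 5922 and MTF1 between 4874 and 5390. MT1E ranked between 7108 and 7404 in the wild type and between 10125 and 10243 in CTCF-B KO. Of 12 astrocyte and glioma markers, 8 passed the filter, among them VIM, SOX2 and GFAP. No microglial marker of 8 did, nor more than 3 of 8 neuronal, 1 of 6 endothelial, 1 of 6 epithelial and 2 of 6 fibroblast markers. The summed linear level of the astrocyte and glioma markers ran from 165141 to 187914 in the wild type, from 115501 to 130222 in the CTCF-A KO libraries and from 105333 to 109211 in CTCF-B KO. GFAP, an intermediate filament gene, made up much of this fall: its linear level ran from 45383 to 58879 in the wild type, from 5817 to 6608 in CTCF-A KO and from 6968 to 7496 in CTCF-B KO, 0.116 and 0.139 times the wild-type level (limma, adjusted p = 6.62e-12 and 4.34e-11). The other 7 kept markers summed to between 119758 and 129035 in the wild type, to between 109684 and 123615 in CTCF-A KO, which overlapped it, and to between 98365 and 101725 in CTCF-B KO. All 8 passed as lower in CTCF-B KO and 5 in CTCF-A KO, where VIM stood at 1.01 times the wild-type level and did not pass. The part of these markers in the results on the members was not tested. In such bulk samples, fewer cells of a type and less RNA per cell cannot be told apart.

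The CTCF-A KO libraries differed among themselves more than the others. Between 2 libraries of that group the median absolute difference over all kept genes was 0.08 to 0.29, against 0.06 to 0.08 in CTCF-B KO and 0.05 to 0.08 in the wild type. They also shifted with GC content: the median log2 difference from the wild type was higher in the tenth of genes with the most GC (at least 62.1%) than in the tenth with the least (at most 39.3%) by 1.00, 0.47, 0.68 and 0.07 in replicates 1 to 4. The same measure lay between -0.15 and 0.09 in the wild-type and between -0.12 and 0.03 in the CTCF-B KO libraries. The transcripts of MT2A, MT1E, MT1F and MT1X hold 63, 59.5, 59.9 and 50.9% GC, those of SLC30A1 and MTF1 38 and 46.7%. Each fold change of a member in CTCF-A KO against the wild type is therefore also given after the trend with GC content and transcript length was taken out of each library.

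MT1E fell in both knockouts, and its fall in CTCF-B KO was the largest change of any member. Its wild-type libraries stood at 8.49, 8.57, 8.48 and 8.61. The CTCF-B KO libraries stood at 6.14, 6.06, 6.15 and 6.25, and no library of the 2 groups overlapped. The change was -2.39 ± 0.12 (SE, n = 4 against 4), 0.191 times the wild-type level, with an adjusted p of 1.08e-08 (limma), and it was -2.39 with the GC and length trend removed. In linear values, the mean went from 372 ± 15.8 (SD, n = 4) to 71.2 ± 3.96. The CTCF-A KO libraries stood at 8.24, 7.86, 8.33 and 7.65, all below the lowest wild-type library. There the fall was -0.52 ± 0.12 (limma, adjusted p = 0.00286) and -0.72 with the trend removed. Its size depended on the weight given to single libraries: it was -0.22 with array weights and -0.88 when replicate 4 alone stood for the group, both past the threshold. Between the knockouts, MT1E was higher by 1.87 ± 0.12 in CTCF-A KO than in CTCF-B KO (limma, adjusted p = 4.62e-08), again with no overlap.

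MT1F, another MT1 gene, fell in CTCF-A KO and did not pass the test in CTCF-B KO. It stood at 7.95, 7.82, 7.81 and 7.86 in the wild type and at 7.31, 6.83, 7.30 and 6.91 in CTCF-A KO, again with no overlap. The fall was -0.77 ± 0.10 (limma, adjusted p = 4.34e-05), 0.586 times the wild-type level, and it was -0.98 with the trend removed. CTCF-B KO libraries, at 8.09, 7.86, 7.98 and 7.97, overlapped the wild type. Their difference of 0.11 ± 0.10 had a 95% interval from -0.11 to 0.34 and an adjusted p of 0.422. Between the knockouts, MT1F was lower in CTCF-A KO by a difference of -0.88 ± 0.10 (adjusted p = 9.36e-06).

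MT1X, the last gene of the cluster, moved in opposite directions in the knockouts by small amounts. Wild-type libraries stood at 7.12, 7.26, 7.21 and 7.16. They lay above all of CTCF-A KO, at 7.00, 7.05, 6.96 and 6.89, and below all of CTCF-B KO, at 7.54, 7.39, 7.45 and 7.34. The fall in CTCF-A KO was -0.21 ± 0.06 (limma, adjusted p = 0.00983) and the rise in CTCF-B KO was 0.24 ± 0.06 (adjusted p = 0.00736). With the trend removed these were -0.36 and 0.29, while centring each library on its median left the fall at -0.13 (adjusted p = 0.127). The difference between the knockouts was -0.45 ± 0.06 (adjusted p = 3.29e-05).

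MT2A, by far the most abundant of the 4, rose in CTCF-B KO. It stood at 11.87, 11.91, 12.07 and 11.91 in the wild type and at 12.31, 12.35, 12.30 and 12.25 in CTCF-B KO, with no overlap. The rise was 0.36 ± 0.08 (limma, adjusted p = 0.0035), 1.29 times the wild-type level, and was 0.35 with the trend removed. In CTCF-A KO the libraries spread from 11.84 in replicate 4 to 12.32 in replicate 1 around the wild type. The difference of 0.16 ± 0.08 (95% interval -0.02 to 0.34) had an adjusted p of 0.103, and it was -0.05 with the trend removed. Without CTCF-A KO replicate 4 it was 0.25 and passed the test (adjusted p = 0.00159). The difference between the knockouts, -0.20 ± 0.08, passed narrowly (adjusted p = 0.0452), lost the call when any of 9 of the 12 libraries was left out (-0.11 without CTCF-A KO replicate 4) and was -0.40 with the trend removed.

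**Figure D1:**
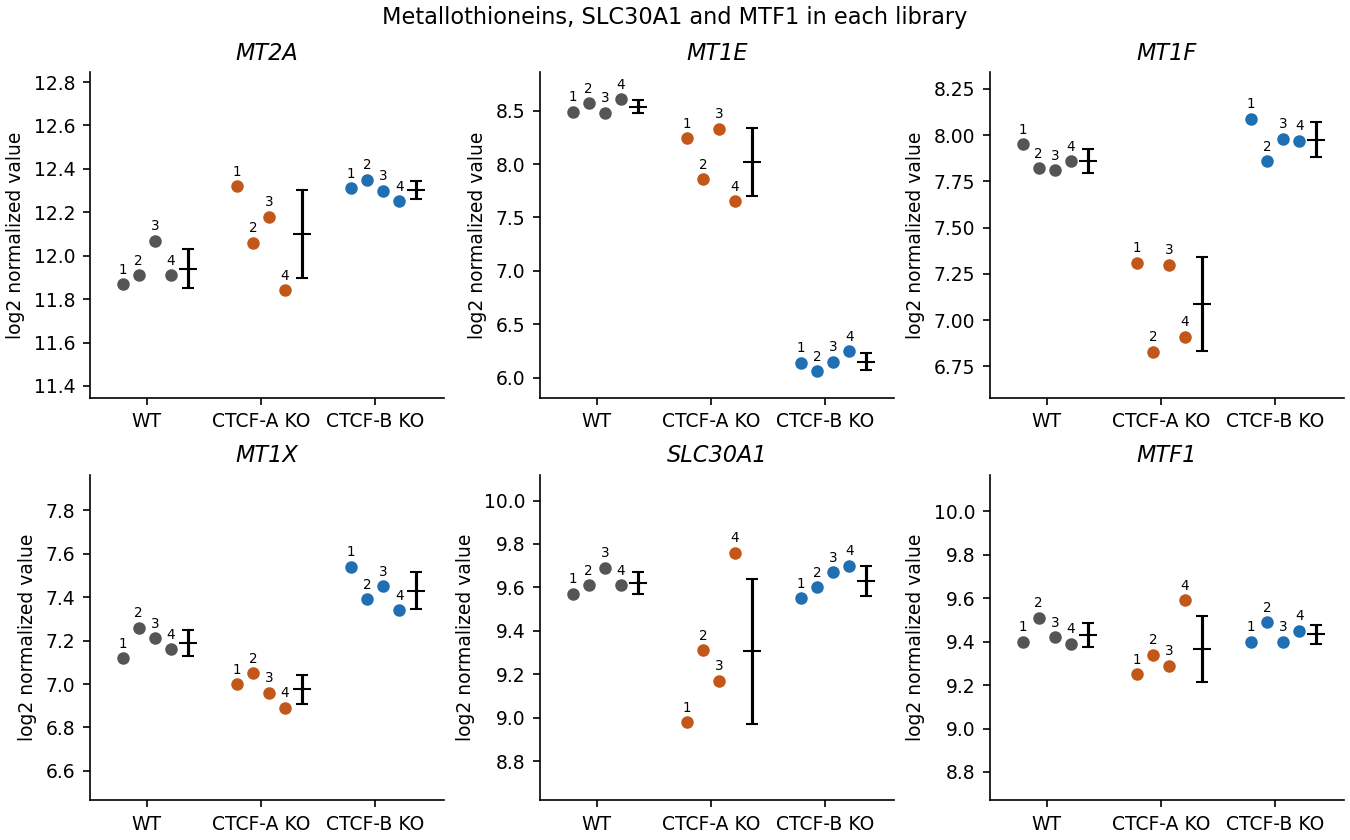
Normalized log2 value (vertical axis) of each member gene in each library (points, with the replicate number above), grouped as WT, CTCF-A KO and CTCF-B KO; the bar beside each group is the mean ± SD of 4 libraries. MT1E lies between 6.06 and 6.25 in all 4 CTCF-B KO libraries, and the CTCF-A KO points of SLC30A1 spread from 8.98 to 9.76.

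SLC30A1, whose product exports zinc across the plasma membrane, had a lower mean in CTCF-A KO that rested on 3 of its 4 libraries and changed sign with the trend removed. Its wild-type libraries stood at 9.57, 9.61, 9.69 and 9.61. CTCF-A KO replicates 1, 2 and 3 stood below these, at 8.98, 9.31 and 9.17, and replicate 4 stood above them, at 9.76. The difference was -0.32 ± 0.12 (limma, adjusted p = 0.0392), but 0.15 ± 0.03 (adjusted p = 0.0013) after the GC and length trend was removed. The call was lost when any of 9 of the 12 libraries was left out, with the difference between -0.47 and -0.21. With replicate 4 as the group's only library it was 0.14 ± 0.07 (adjusted p = 0.103). The order of the 4 libraries in SLC30A1, lowest in replicate 1 and highest in replicate 4, was the reverse of their order in the GC measure, and the part of GC content in the result was not tested beyond the removal of the trend. In CTCF-B KO the gene stood at 9.55, 9.60, 9.67 and 9.70, within 0.01 ± 0.12 of the wild type (95% interval -0.26 to 0.27, adjusted p = 0.966). Between the knockouts the difference was -0.32 ± 0.12 (adjusted p = 0.0334), and 0.12 with the trend removed.

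MTF1, the shared regulator, did not pass the test in any of the 3 comparisons. Its values were 9.40, 9.51, 9.42 and 9.39 in the wild type, 9.25, 9.34, 9.29 and 9.59 in CTCF-A KO, and 9.40, 9.49, 9.40 and 9.45 in CTCF-B KO. The 3 groups overlapped throughout. Against the wild type, the difference was -0.06 ± 0.07 for CTCF-A KO (95% interval -0.21 to 0.08, adjusted p = 0.423) and 0.00 ± 0.07 for CTCF-B KO (95% interval -0.14 to 0.15, adjusted p = 0.972). With the trend removed it was 0.16 (adjusted p = 0.00272) and 0.10 (adjusted p = 0.0305). Without CTCF-A KO replicate 4, the highest library, it was -0.14 (adjusted p = 0.0137), so the direction in CTCF-A KO depended on the processing. An mRNA level says nothing of the protein's activity, which zinc controls after it is made.

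**Figure D2:**
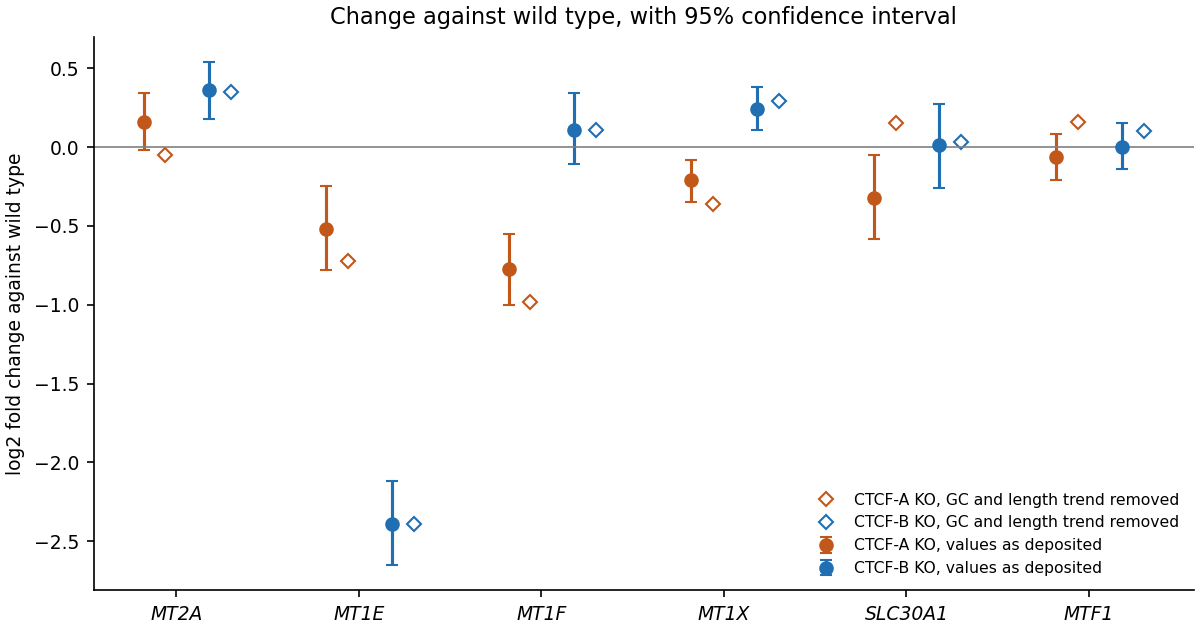
Difference of each member gene from the wild type on the log2 scale (vertical axis), in CTCF-A KO (orange) and CTCF-B KO (blue); filled circles with bars are the estimate and its 95% interval from limma on the values as deposited, open diamonds the estimate with the GC and length trend removed. MT1E in CTCF-B KO lies at -2.39 in both, and SLC30A1 in CTCF-A KO changes from -0.32 to 0.15.

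The share of members that passed the test was close to that of all genes. In CTCF-A KO against the wild type, 4 of 6 members passed the test, where 62.9% of the 11128 genes did. All 4 were lower, as were 31.1% of all genes, and none was higher, as were 31.8%, but SLC30A1 is 1 of the 4 and changed sign with the trend removed. In CTCF-B KO, 3 of 6 passed, against 39.4% of all genes; MT2A and MT1X were higher, against 18.9%, and MT1E was lower, against 20.6%. Between the knockouts, 5 of 6 passed, against 66% of all genes, with MT1E higher in CTCF-A KO (33.4% of all genes) and 4 members lower (32.6%). The size of the fall of MT1E in CTCF-B KO was less common: genes that passed and changed at least 2-fold made up 1.42% of all genes in that comparison, and 2.23% in CTCF-A KO against the wild type.

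Per kilobase of transcript, which allows levels of different genes to be compared, MT2A led in all groups, with a linear value of 5014 ± 322 (SD, n = 4) in the wild type, 5639 ± 776 in the CTCF-A KO libraries and 6438 ± 183 in CTCF-B KO. In the wild type it was followed by MT1E at 528 ± 22.4, MT1F at 337 ± 14.6, MT1X at 324 ± 13.5, SLC30A1 at 144 ± 5.33 and MTF1 at 86.8 ± 3.3, and only the libraries of MT1F and MT1X overlapped. In CTCF-A KO the order was MT2A, MT1E at 376 ± 81.2, MT1X at 280 ± 12.8, MT1F at 200 ± 34.9, SLC30A1 at 118 ± 28.9 and MTF1 at 83.4 ± 9.11, where MT1E overlapped MT1X and SLC30A1 overlapped MTF1. The place of MT1E changed most in CTCF-B KO. There it stood at 101 ± 5.62, below SLC30A1 at 145 ± 6.76 and above MTF1 at 87 ± 2.6, with no overlap. MT1X at 384 ± 22.5 and MT1F at 365 ± 23.4 overlapped each other. Each length was that of a single GENCODE transcript, 690 bases for MT1F and 450 for MT1X, and the order rests on these lengths. Undivided, the mean of MT1F (138) was above that of MT1X (126) in CTCF-A KO.

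The sum of the linear values of the 4 metallothioneins does not depend on which of them a read was given to. This holds if the deposited values are plain logarithms of normalized counts and if shared reads were counted within the 4. Whether such reads were dropped, or given to another copy, is not known. The sum was 4483, 4617, 5042 and 4625 in the wild type, 5710, 4758, 5259 and 4117 in CTCF-A KO, and 5600, 5705, 5544 and 5375 in CTCF-B KO. All CTCF-B KO libraries were above all wild-type libraries, and the CTCF-A KO libraries spread across both. On the log2 scale the sum was higher than in the wild type by 0.25 in CTCF-B KO (exact permutation test, two-sided, p = 0.0286, the smallest that 4 against 4 can give; adjusted over 3 tests, 0.0857). For CTCF-A KO the difference was 0.07 (exact permutation p = 0.514, adjusted 0.514), and between the knockouts -0.17 (exact p = 0.171, adjusted 0.257). The fall of MT1E was thus not accompanied by a lower sum in CTCF-B KO, of which MT2A made up most. MT2A held 84% ± 1.03 (SD, n = 4) of the sum in the wild type, 89.3% ± 0.622 with site A removed and 91.1% ± 0.528 with site B removed. The share of MT1E went from 7.95% ± 0.592 to 5.3% ± 0.583 and 1.28% ± 0.104, and that of MT1F from 4.97% ± 0.431 to 2.78% ± 0.268 and 4.54% ± 0.331. MT1X held 3.12% ± 0.157, 2.57% ± 0.312 and 3.11% ± 0.165. These shares are of values not divided by transcript length, and only their change between groups can be read.

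Ratios between metallothioneins, which a shift of a whole library leaves as they are, showed that the 4 genes did not change by the same factor. Of 18 tests (6 pairs in 3 comparisons), 12 passed after adjustment, each with the smallest exact permutation p that 4 against 4 can give (0.0286, adjusted 0.0429, two-sided). In CTCF-B KO against the wild type these were the 3 ratios that hold MT1E. The ratio of MT2A to MT1E was higher by 2.75, that of MT1E to MT1F lower with a difference of -2.50, and that of MT1E to MT1X lower with a difference of -2.63. The 3 ratios among MT2A, MT1F and MT1X differed there by 0.25 (MT2A to MT1F), 0.12 (MT2A to MT1X) and -0.13 (MT1F to MT1X), with overlapping libraries and exact adjusted p of 0.0686, 0.0964 and 0.114. In CTCF-A KO, 4 ratios passed: MT2A to MT1F (0.93), MT2A to MT1E (0.68), MT2A to MT1X (0.37) and MT1F to MT1X (-0.56). MT1E to MT1F (0.25, exact adjusted p = 0.0686) and MT1E to MT1X (-0.30, exact adjusted p = 0.114) did not. Between the knockouts 5 of the 6 ratios passed, the exception being MT2A to MT1X (0.25, exact adjusted p = 0.0686).

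**Figure D3:**
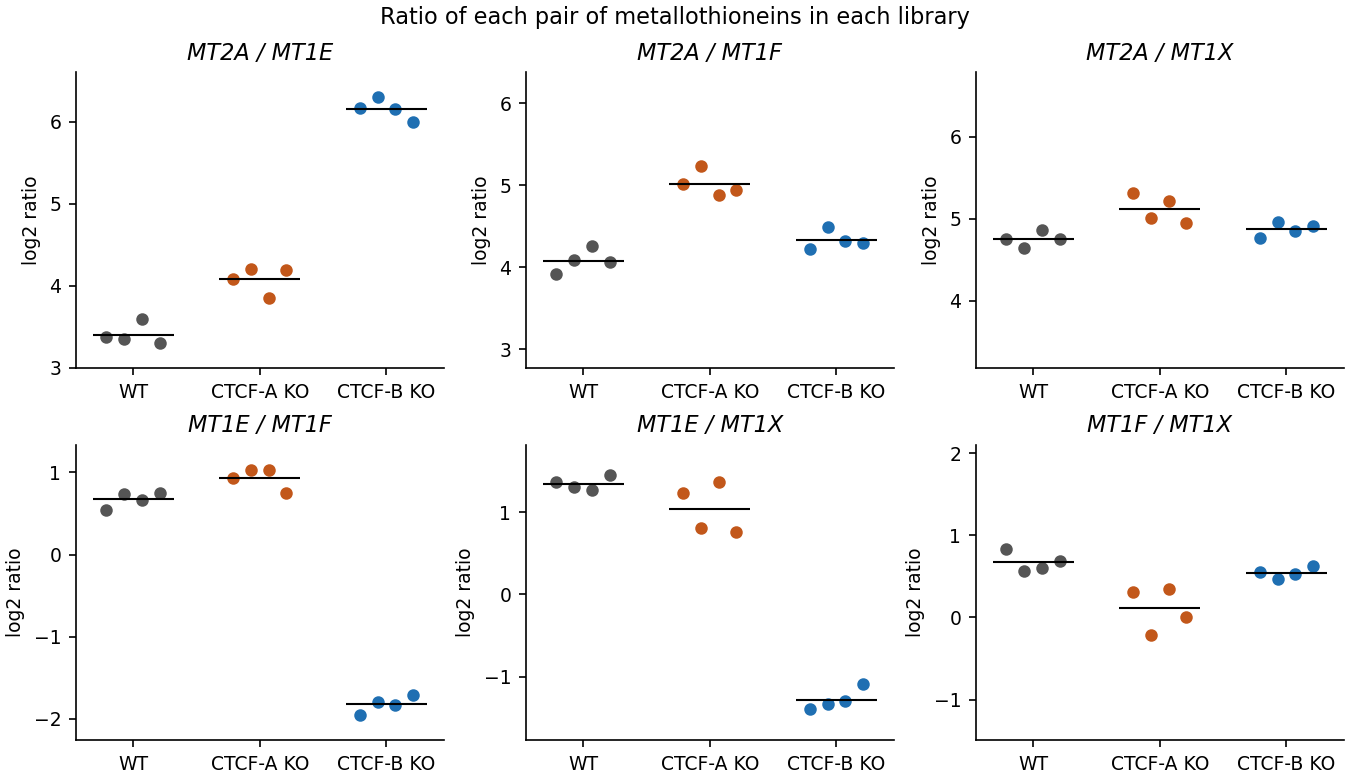
Log2 ratio of each pair of metallothioneins (vertical axis, each panel spanning the same height) in each library (points) of WT, CTCF-A KO and CTCF-B KO, with a line at the group mean. The 3 ratios with MT1E stand apart in CTCF-B KO, with means of 6.15 for MT2A to MT1E, -1.82 for MT1E to MT1F and -1.28 for MT1E to MT1X, against 3.40, 0.68 and 1.35 in WT.

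Across the 12 libraries the members did not follow one another as a single set. Pearson's r, given as a description since the libraries share their groups, was -0.72 for MT1E with MT1X and -0.69 for MT1E with MT2A, but 0.82 for MT1F with MT1X. MT2A with MTF1 had an r of -0.41, and SLC30A1 with MTF1 one of 0.84. SLC30A1 and MTF1 both varied most within CTCF-A KO, with an SD of 0.33 and 0.15, against 0.04 to 0.07 in the other groups. In CTCF-A KO both were lowest in replicate 1 (8.98 and 9.25) and highest in replicate 4 (9.76 and 9.59), the reverse of the GC measure. The part of GC content in this r was not tested. The genes whose log2 values were most like MT1E over the 12 libraries were PRSS23 (r = 0.993), RERE (0.992) and APLP2 (0.992), the last a relative of APP. All were lowest in CTCF-B KO: PRSS23 stood at 12.39 in the wild type, 12.21 with site A removed and 11.52 with site B removed, and APLP2 at 14.45, 14.34 and 13.95. Most like MT1F were SPATA2L (0.983), LINC01003 (0.983) and EFNB3 (0.977). CASP8 (0.972) and MTHFD1L (0.970) were most like MT1X, and most like MT2A were SEC61G (0.967), AGTRAP (0.956) and HDDC2 (0.954). SLC30A1 was followed most closely by EPRS1 (0.994), ANKRD28 (0.993) and LOC103611081 (0.993), which also had a wide spread within CTCF-A KO, with an SD of 0.55, 0.54 and 0.50. For MTF1 the likest genes were OTULIN (0.944), ZNF225 (0.919) and DROSHA (0.905).

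The neighbours of the cluster were examined to see whether the change of MT1E was shared along the chromosome. Of 19 kept genes that start within 1 Mb of the cluster, 5 lie before it and 14 after it. Against the wild type, 1 was higher and 7 were lower in CTCF-B KO, with a median difference of -0.10, against 0.00 over all genes. The shares of all genes in that comparison were 18.9% higher and 20.6% lower. With site A removed, 3 neighbours were higher and 7 lower, with a median of -0.08 (0.00 over all genes). All genes were there split into 31.8% higher and 31.1% lower. Once the trend was removed, 3 neighbours were higher and 13 lower in CTCF-A KO. In CTCF-B KO 3 were then higher and 10 lower. Shares of all genes by direction are not given here for the fit without the trend, so these counts have no background to compare with. The largest changes among those that passed in CTCF-B KO were those of HERPUD1, an endoplasmic reticulum stress gene (0.36 ± 0.05, adjusted p = 0.000155), ADGRG1, an adhesion receptor (-0.31 ± 0.06, adjusted p = 0.0011), and CCDC102A (-0.31 ± 0.08, adjusted p = 0.00803). No neighbour came near the -2.39 of MT1E. BBS2 and NUP93, the kept genes that start nearest before and after the cluster, differed by -0.03 ± 0.05 (adjusted p = 0.599) and -0.17 ± 0.05 (adjusted p = 0.0123). Both were chosen after their values had been seen. In CTCF-A KO, NLRC5, a regulator of MHC class I genes, rose by 1.00 ± 0.09 (adjusted p = 8.2e-07), ADGRG1 by 0.63 ± 0.06 (adjusted p = 2.02e-06) and GNAO1, a G protein subunit, by 0.46 ± 0.05 (adjusted p = 1.28e-05). OGFOD1 fell there by 0.35 (-0.03 with the trend removed), and ARL2BP by 0.21 in both knockouts.

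**Figure D4:**
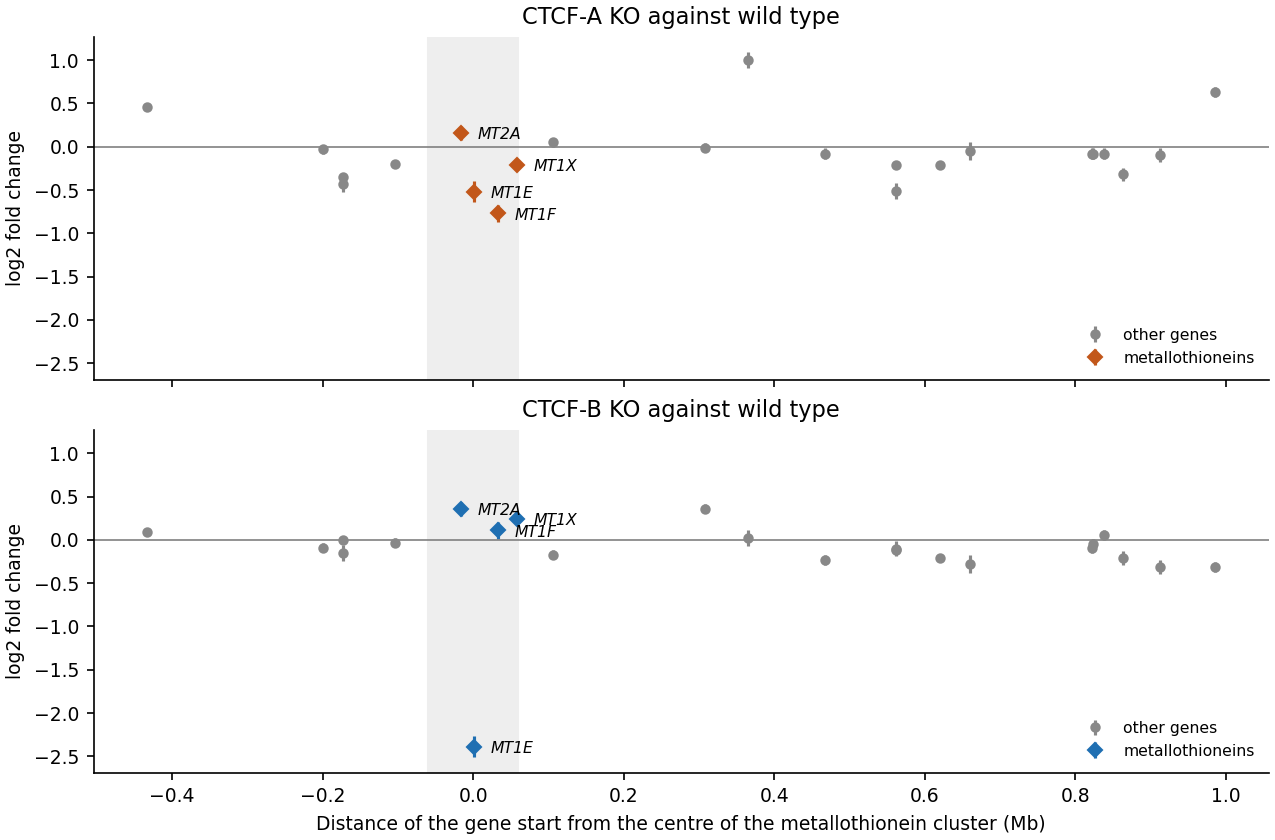
Log2 fold change against wild type (vertical axis, bars are SE) of the 4 metallothioneins (diamonds) and the 19 other kept genes within 1 Mb (grey circles), by distance of the gene's start from the centre of the metallothionein cluster in Mb (horizontal axis; the shaded band is the cluster). In CTCF-B KO, MT1E lies at -2.39 and the other 22 genes between -0.31 and 0.36.

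Other zinc transporters were counted from lists of the SLC30 family, which moves zinc out of the cytosol, and the SLC39 family, which moves it in. Of 6 kept SLC30 genes, 4 passed as lower in CTCF-A KO and 0 as higher (median -0.33). Among all genes 62.9% passed there, 31.1% as lower and 31.8% as higher. With the trend removed 3 of the 6 were higher and 1 lower (median 0.13), so the direction of the family depended on the processing. Of all genes, 6875 of 11096 passed in that fit, in either direction. SLC30A9, linked to zinc in mitochondria, was lower both ways, by -1.06 ± 0.14 (adjusted p = 2.82e-05) and by -0.60. SLC30A6 (-0.40) and SLC30A4 (-0.35) became 0.05 and 0.11, neither past the threshold, and SLC30A5 (-0.02) and SLC30A7 (-0.14), which had not passed, became 0.35 and 0.37 and then passed. In CTCF-B KO only SLC30A5, which loads zinc into the early secretory pathway, passed among the 6, with 0.19 ± 0.07 (adjusted p = 0.0431). The median was 0.02, and 18.9% of all genes were higher there and 20.6% lower. SLC30A4 had a larger difference, -0.38 ± 0.14 with no overlap of libraries, but narrowly missed the threshold (limma, adjusted p = 0.0532). With the trend removed it passed at -0.34 (limma, adjusted p = 0.000627), and the family then had 1 higher and 1 lower. Of all genes, 6089 of 11096 then passed in CTCF-B KO, in either direction.

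Of 10 kept SLC39 genes, 5 were higher and 0 lower in CTCF-B KO (median 0.19, against 0.00 over all genes). They were SLC39A13 (0.42 ± 0.06, adjusted p = 0.000136), SLC39A14, a zinc and iron importer at the cell surface (0.32 ± 0.05, adjusted p = 0.000103), SLC39A7, which releases zinc from the endoplasmic reticulum (0.32 ± 0.05, adjusted p = 0.000393), SLC39A3 (0.24 ± 0.07) and SLC39A9 (0.20 ± 0.05). Of all genes, 18.9% were higher there and 20.6% lower. With the trend removed 6089 of 11096 genes passed in either direction, against 4389 of 11128 as deposited. Of the 10 SLC39 genes, 7 were then higher and 1 lower. The lower gene was SLC39A10, at -0.25 (limma, adjusted p = 0.00552), which as deposited stood at -0.27 and did not pass. In CTCF-A KO, where 31.8% of all genes were higher and 31.1% lower, 3 SLC39 genes were higher and 4 lower (median -0.06). With the trend removed 3 were higher and 1 lower (median -0.01), where 6875 of 11096 genes passed in either direction. SLC39A11 rose by 0.67 ± 0.06 (adjusted p = 1.99e-06) and SLC39A1 by 0.43 ± 0.08 (adjusted p = 0.000645), while SLC39A13 fell by 0.21 and SLC39A9 by 0.20. With the trend removed SLC39A9 was at -0.01, SLC39A13 at -0.42 and SLC39A1 at 0.25. SLC39A3 (0.19) and SLC39A7 (0.12, not past the threshold) became -0.01 and -0.06.

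Of 13 genes that metals and oxidants induce, all kept, 9 passed as higher and 1 as lower in CTCF-A KO (median 0.32), where 31.8% of all genes were higher. In CTCF-B KO 8 passed as higher and 0 as lower (median 0.46), where 18.9% of all genes were higher. The median of all genes was 0.00 in both. HMOX1, which encodes a heme-degrading enzyme, rose by 2.01 ± 0.10 in CTCF-A KO (adjusted p = 9e-09), and its rise in CTCF-B KO was 0.53 ± 0.10 (adjusted p = 0.00112). SRXN1, which restores oxidized peroxiredoxins, rose by 0.59 and 0.74, and PGF, a growth factor whose gene MTF1 is known to act on, by 0.46 (0.26 with the trend removed) and 0.79. HSPA1B, a heat shock protein gene, rose by 0.93 and 0.46, but it is a near-identical copy of HSPA1A and its value is uncertain for that reason. BAG3, a cochaperone gene, fell by 0.68 in CTCF-A KO and rose by 0.38 in CTCF-B KO. In CTCF-A KO, MT1E, MT1F and MT1X were lower while HMOX1 and others of the 9 were higher, and BAG3 was lower. MT2A, at 0.16 ± 0.08, did not pass there.

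**Figure D5:**
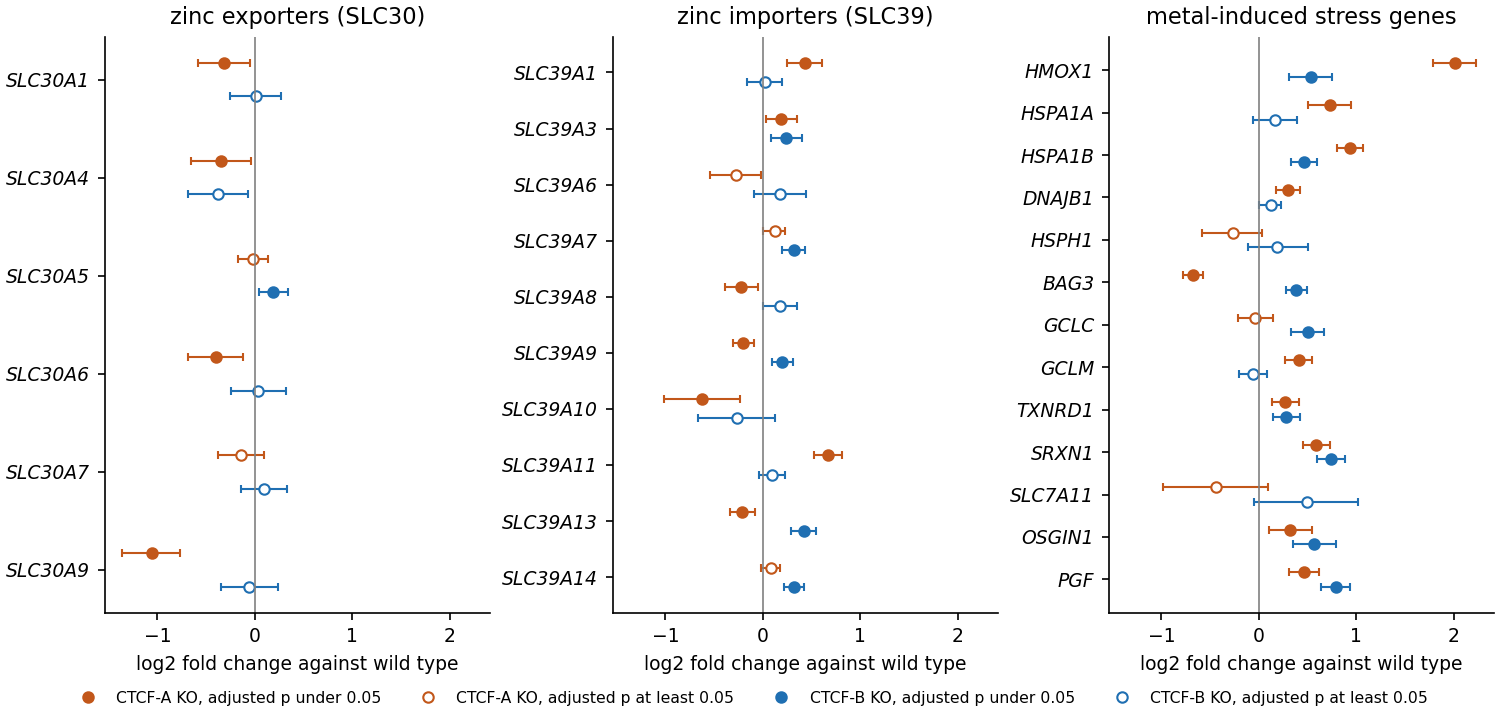
Log2 fold change against wild type (horizontal axis, bars are the 95% interval) of the kept genes of 3 lists in CTCF-A KO (orange) and CTCF-B KO (blue), with filled circles where the adjusted p was under 0.05. SLC30A9 in CTCF-A KO lies at -1.06 and HMOX1 at 2.01, on values as deposited. Of the 29 genes, 10 change sign in CTCF-A KO with the trend removed, SLC30A1, SLC30A4, SLC30A5, SLC30A6 and SLC30A7 among them, and 0 in CTCF-B KO.

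Known and possible regulators of metallothionein genes, 13 in the list with MTF1, were divided. In CTCF-A KO 4 were higher and 3 lower (median -0.06), and in CTCF-B KO 2 were higher and 3 lower (median -0.08). Removing the trend made these 4 higher and 6 lower, and 4 higher and 4 lower. As deposited, 31.8% of all genes were higher and 31.1% lower in CTCF-A KO, and 18.9% and 20.6% in CTCF-B KO. The counts of regulators as deposited lay near these shares. USF1, a factor that binds E-boxes in metallothionein promoters, rose by 0.37 in CTCF-A KO (adjusted p = 0.000289) and fell by 0.19 in CTCF-B KO (adjusted p = 0.0294), and STAT3 likewise rose by 0.25 and fell by 0.22. NR3C1, the glucocorticoid receptor, fell by 0.79 in CTCF-A KO (adjusted p = 0.000788), and by 0.31 with the trend removed. CREBBP, a coactivator, rose by 0.30 in CTCF-A KO (adjusted p = 7.06e-05). The rises of USF1 and CREBBP in CTCF-A KO were 0.19 and 0.16 with the trend removed. HSF1 (0.20) and KEAP1 (0.21) rose in CTCF-B KO. In CTCF-A KO they stood at 0.10 and 0.11, which did not pass, and changed sign to -0.11 and -0.08 with the trend removed.

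The list of genes induced by glucocorticoids, another known inducer of MT2A, split in CTCF-A KO into 4 higher and 4 lower of 9 kept (median 0.06, against 0.00 over all genes), and in CTCF-B KO into 2 higher and 1 lower (median -0.10). It also holds NR3C1, the receptor and not a target, as 1 of the 4 lower. Once the trend was removed, 4 were higher and 2 lower in CTCF-A KO, and 3 and 3 in CTCF-B KO. For this list and the copper and iron lists below, 31.8% of all genes as deposited were higher and 31.1% lower in CTCF-A KO. In CTCF-B KO these shares were 18.9% and 20.6%. TSC22D3 rose by 1.17, NFKBIA by 0.84, CEBPD by 0.75 and PER1 by 0.38 (0.21 with the trend removed) in CTCF-A KO, whereas in CTCF-B KO DUSP1 rose by 0.85, ERRFI1 by 0.32, and KLF9 fell by 0.50. In CTCF-A KO, KLF9 fell by 0.32 and ERRFI1 by 0.13. With the trend removed neither passed, at -0.15 (adjusted p = 0.0568) and 0.05, and DUSP1, at 0.06, became -0.12. Copper handling genes, 13 kept, had 4 higher and 2 lower in CTCF-A KO (median 0.10) and 1 higher and 2 lower in CTCF-B KO (median -0.05), and with the trend removed 7 were higher and 2 lower in CTCF-A KO. STEAP3, a metalloreductase, rose by 0.61, SOD1, the copper and zinc superoxide dismutase, by 0.45 and COA6 by 0.38 in CTCF-A KO, while MOXD1 fell by 0.44 there and by 0.26 in CTCF-B KO. COMMD1 fell by 0.21 and SCO1 rose by 0.18 in CTCF-B KO (0.29 with the trend removed), and SCO1, at -0.01 in CTCF-A KO, stood at 0.31 there with the trend removed. Iron handling genes, 12 kept, had 4 higher and 4 lower in CTCF-A KO (median 0.08), against 2 and 2 in CTCF-B KO (median -0.02), and with the trend removed 5 were higher and 3 lower in CTCF-A KO. The ferritin chains FTL and FTH1 rose by 0.74 and 0.60 in CTCF-A KO, while FBXL5 fell by 0.79 (-0.50 with the trend removed), NCOA4 by 0.35 and ACO1 by 0.31 (-0.05 with the trend removed). SLC25A37, a mitochondrial iron importer, rose by 0.37 in CTCF-B KO and by 0.21 in CTCF-A KO.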

How the data were processed

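RNA was sequenced from 12 libraries, 4 in each of 3 groups given by the labels. The authors deposited normalized values that were already on a log2 scale, as their range from 1.34 to 17.97 shows. Per the submitters' processing notes, Trimmomatic 0.33, featureCounts and DESeq2 were used with GRCh38.p7. The aligner, annotation, strand setting, treatment of reads shared by genes and log2 transformation are not given in the sources used here. Depth is unknown, so no counting interval was made.

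The plan took the table to be linear, and as it held log2 values these were used without a pseudocount. Genes with a linear value of at least 10 in at least 4 libraries were kept (11128 of 11178). The 3 groups and all genes entered 1 linear model in limma 3.58.1 in R 4.3.3, with trended empirical Bayes variance and Benjamini-Hochberg adjustment over all kept genes at 0.05, and was tested on simulated data. Sums and ratios of metallothioneins were compared by two-sided exact permutation tests. The trend with GC content and transcript length (GENCODE 29, which held 11151 of the identifiers) was fitted in each library relative to the wild-type mean and subtracted. Coding sequences and positions come from GENCODE 29 and promoters from RefSeq.

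The members and gene lists were chosen with earlier results of these data known. Named were all members, up to 4 genes of each list with the smallest adjusted p in each comparison with the wild type (all genes of lists with 6 or fewer), the 3 genes most like each member, and VIM, SOX2 and GFAP. HSPA1A, SLC39A3, SLC39A10, BBS2 and NUP93 were named outside this rule. 1 gene that the rule took is not reported here. Alternatives covered the filter, scaling, variance model, groups fitted, trend, replicate block and each library left out.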

Additional observations from a re-analysis of the deposited data

How the results depend on the processing

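The falls of MT1E and MT1F in CTCF-A KO, and the changes of MT1E, MT2A and MT1X in CTCF-B KO, kept their direction and stayed past the threshold under every alternative run, as did the differences of MT1E, MT1F and MT1X between the knockouts. Of the 18 member fold changes, 371 of 432 values under alternatives kept sign and side of the threshold, 32 lost the call, 9 gained it and 20 changed sign, 9 of them with a call in either fit. The other 11 were values of MT2A, MTF1 and SLC30A1 that passed in neither. The estimation of array weights stopped before it converged. The cause of each change below was not tested.

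Against the wild type in CTCF-A KO, MT2A (0.16) passed with median centring (0.24) and with array weights (0.26), changed sign without passing with the trend removed (-0.05) and with only replicate 4 (-0.10), and left-out libraries gave 0.09 to 0.25. MT1E (-0.52) was -0.22 with array weights and -0.88 with only replicate 4. MT1X (-0.21) did not pass with median centring (-0.13). SLC30A1 (-0.32) did not pass in a fit of only the 2 groups (-0.32), with quantile normalization (-0.24) or with median centring (-0.23), changed sign with the GC and length trend removed (0.15, also 0.15 with the replicate block) and with CTCF-A KO represented by replicate 4 alone (0.14, an alternative chosen after seeing the data, in which the lone library is assumed to vary like the other groups), and ranged from -0.47 to -0.21 with libraries left out. MTF1 (-0.06) passed with array weights (-0.14), changed sign and passed with the trend removed (0.16, also 0.16 with the block), was 0.16 with only replicate 4, 0.01 with quantile normalization and 0.02 with median centring, none of these past the threshold, and ranged from -0.14 to -0.02. In CTCF-B KO, MTF1 (0.00) passed with the trend removed (0.10, also 0.10 with the block). Between the knockouts, MT2A (-0.20) did not pass in a fit of only the 2 groups (-0.20), with median centring (-0.13) or without a variance trend (-0.20), was -0.37 with quantile normalization, -0.40 with the trend removed, -0.12 with array weights and -0.46 with only replicate 4, and ranged from -0.27 to -0.11. SLC30A1 (-0.32) did not pass in a fit of only the 2 groups (-0.32), became 0.12 with the trend removed (0.12 with the block) and 0.13 with only replicate 4, and ranged from -0.48 to -0.21. MTF1 (-0.07) passed with array weights (-0.13) and changed sign with only replicate 4 (0.15). It also changed sign with the trend removed (0.05, not past the threshold), and ranged from -0.14 to -0.03 with libraries left out.

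The summed metallothionein level passed with the trend removed in CTCF-B KO against the wild type (0.24) and in CTCF-A KO against CTCF-B KO (-0.37), the latter ranging from -0.24 to -0.09 with libraries left out. Ratios that had not passed gained the call with the trend removed for MT1E to MT1X in CTCF-A KO (-0.36; -0.41 to -0.21 with libraries left out) and MT1F to MT1X in CTCF-B KO (-0.18; -0.17 to -0.08). With a library left out, when the smallest exact p is 0.0571, the groups separated fully in some cases for MT2A to MT1F (0.19 to 0.31) and MT2A to MT1X (0.09 to 0.16) in CTCF-B KO, for MT1E to MT1F in CTCF-A KO (0.21 to 0.32) and for MT2A to MT1X between the knockouts (0.19 to 0.31).

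The replicate numbers did not pair the libraries: of 12 same-numbered pairs, 5 had a correlation of deviations over 0.1 (range -0.32 to 0.43), and in 8 of 24 cases a library correlated best with its own number. The replicate block called 7060 genes in CTCF-A KO against 7002 without it and changed no member's call, with MT1E in CTCF-B KO at -2.39. For ratios, 4 pairs cannot go below an exact p of 0.125, and with the block all 4 differences had the same sign also for MT2A to MT1F (0.25) and MT1F to MT1X (-0.13) in CTCF-B KO and MT2A to MT1X between the knockouts (0.25).

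The count of genes called in CTCF-A KO was 4654 with only replicate 4. In CTCF-B KO it was 4389, but 6601 in a fit of only the 2 groups, 7101 with array weights and 6604 with only replicate 4 of CTCF-A KO. Of 576 list counts under alternatives, 86 moved by over 1.5 times. Of 2446 values for 51 named list genes, 77 lost the call, 60 gained it and 47 changed sign, 44 of them with site A removed and 3 with site B removed. Of these, 26 had a call in either fit, all in CTCF-A KO, and 21, SLC39A7 (-0.06 with the trend removed) among them, had none. Those of the 26 that came with the trend removed, with or without the block, were VIM (-0.15), KEAP1 (-0.08), SLC30A4 (0.11), ERRFI1 (0.05), DUSP1 (-0.12), SCO1 (0.31), SLC30A5 (0.35), SLC30A6 (0.05), SLC30A7 (0.37) and HSF1 (-0.11). With only replicate 4 they included VIM (-0.12), SLC30A4 (0.07), SLC30A5 (0.18) and SLC30A6 (0.05), with quantile normalization VIM (-0.14) and with array weights SCO1 (0.06).

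No depth is known for these libraries. The spread in CTCF-A KO is wider than in the other groups, while the fit assumes 1 spread for all. How reads that fit several metallothionein copies were counted is not given in the sources used here.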

Other observations

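MT2P1, a processed pseudogene of MT2A on chromosome 4 (chr4:68376323-68376505 on GRCh38, GENCODE 29), has a row in the table and was looked at after its values had been seen. Its 183 bases are 97.3% identical to the coding sequence of MT2A, with a longest shared run of 68 bases, so its reads and those of MT2A may have been exchanged. Its log2 value was 4.60 ± 0.11 (SD, n = 4) in the wild type, 4.95 ± 0.19 with site A removed and 4.87 ± 0.10 with site B removed. The difference from the wild type was 0.35 ± 0.11 (limma, adjusted p = 0.0126) for CTCF-A KO and 0.27 ± 0.11 (adjusted p = 0.0668) for CTCF-B KO, and with the GC and length trend removed the former was 0.17 (adjusted p = 0.242).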
